A study of Mus musculus with 20 samples.

Results

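The 40 genes described here encode the motor, the scaffold and the transcriptional regulators of motile cilia, and were taken by their symbols from a list of motile cilia and axoneme genes. All 40 were found among the 54532 genes of the deposited table of mouse lung, and all 40 passed the filter on low values (at least 5 of the 20 libraries had to reach an FPKM of 1), which left 15106 genes. FPKM (fragments per kilobase of gene, scaled to the mapped fragments of the library) is a level per length, so the levels of different genes can be set side by side. A gene was called where limma, fitted on log2(FPKM + 1) over all 20 libraries, gave an adjusted p under 0.05 after Benjamini-Hochberg adjustment over the 15106 genes.

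The study sequenced lung RNA of wild-type (wt) mice in 4 groups of 5 libraries: SMD, which is Shegan-Mahuang Decoction, a herbal formula studied for asthma; prednisone, a synthetic glucocorticoid; model; and control. The design text gives 15 mice per group. Strain, age, sex, how the model was made, doses, times, whether a library is 1 animal or a pool, and whether the SMD and prednisone mice received the model treatment were not stated in the labels or the design text. The labels give no batch. The treatment label of prednisone replicate 5 carries the number 1, and its title was used for the number. The labels do not tie libraries to separate animals, so a p-value here reflects library-to-library spread, part of which may be technical.

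A motile cilium is a whip-like extension of the cell surface whose core, the axoneme, is a ring of doublet microtubules around a central pair. Dynein arms on the doublets make them slide, and radial spokes, the central pair and linkers between the doublets turn the sliding into a beat. In the lung such cilia stand on the multiciliated cells of the airways, where they move mucus, and Foxj1 and the RFX factors are the transcription factors best known for switching on their genes. The 40 members were grouped by role as 2 regulators, 6 outer dynein arm genes, 3 inner dynein arm genes, 5 rulers, linkers and tethers, 4 radial spoke genes, 6 central pair genes, 8 genes of the doublet microtubules and 6 other ciliary genes.

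RFX factors bind a DNA sequence called the X-box, so the promoters of the members were searched for its letters. RefSeq promoters (GRCm38.p6, 250 bases before to 50 bases after a transcription start) matched 34 of the 40 members. Those without a match were Foxj1, Tppp3, Rsph1, Rsph4a, Cfap53 and Cfap54. The X-box core GTTGCC, searched on both strands, lay in a promoter of 17 of the 34 members (50%), against 14.1% of the 27025 genes with a promoter. A full box, GTTNCC followed after 0 to 3 bases by GGNAAC, was found in 1 of 34 members, Pifo (2.94%, against 0.936% of genes), where it overlaps a core. The forkhead core TGTTTAC, searched on both strands, the letters bound by factors of the Foxj1 class, was found in 2 members, Cfap43 and Sntn (5.88%, against 4.05% of genes). After the sequences had been seen, a pattern with a shorter second part was also searched, GTTGCC followed after 4 or 5 bases by AAC, on either strand. It overlaps the core by construction and lay in 11 of 34 members (32.4%), against 1.2% of genes. Those 11 were Dynlrb2, Lrrc23, Ccdc153, Ccdc113, Cfap44, Dnai2, Hydin, Pifo, Spag16, Tekt2 and Tekt4.

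The following stretches show these letters in their surroundings, 100 bases each, 5′ to 3′ on the strand of the gene, with positions counted back from −1, the base before the start. Capitals mark a core (which reads GGCAAC where it lies on the reverse strand), a full box or a forkhead core (reverse, GTAAACA), and all other letters are in lower case. Dynlrb2, Ccdc153 and Lrrc23 are the members described library by library that hold a core upstream of the start. Pifo, Tekt1, Cfap43 and Ccdc42 were added after the search, for the full box, a pair of cores, the forkhead core, and the lack of a match to the letters searched.
Dynlrb2 (chr8:116504915-116505014, + strand, −100 to −1): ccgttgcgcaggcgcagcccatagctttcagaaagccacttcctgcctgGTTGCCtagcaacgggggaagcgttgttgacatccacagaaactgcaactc
Ccdc153 (chr9:44240480-44240579, + strand, −197 to −98): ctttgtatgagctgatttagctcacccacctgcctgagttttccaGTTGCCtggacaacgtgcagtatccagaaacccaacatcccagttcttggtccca
Lrrc23 (chr6:124779728-124779827, − strand, −100 to −1): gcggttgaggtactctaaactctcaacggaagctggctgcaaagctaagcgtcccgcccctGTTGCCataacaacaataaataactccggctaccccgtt
Pifo (chr3:106001498-106001597, − strand, −100 to −1): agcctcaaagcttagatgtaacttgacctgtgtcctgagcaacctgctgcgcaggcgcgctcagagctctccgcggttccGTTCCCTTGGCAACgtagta
Tekt1 (chr11:72361883-72361982, − strand, −100 to −1): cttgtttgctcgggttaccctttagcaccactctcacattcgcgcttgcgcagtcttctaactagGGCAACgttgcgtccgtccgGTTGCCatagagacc
Cfap43 (chr19:47837362-47837461, − strand, −100 to −1): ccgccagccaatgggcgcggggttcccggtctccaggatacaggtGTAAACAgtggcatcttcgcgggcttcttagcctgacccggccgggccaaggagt
Ccdc42 (chr11:68586937-68587036, + strand, −100 to −1): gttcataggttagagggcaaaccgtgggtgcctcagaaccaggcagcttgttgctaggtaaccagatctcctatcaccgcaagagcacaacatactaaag
In Dynlrb2 the core runs from −51 to −46, in Ccdc153 from −152 to −147 and in Lrrc23 from −39 to −34, and in all 3 of them the letters AAC follow it after 4 or 5 bases. The 2 cores of Tekt1 start at −35 and at −15 and lie on opposite strands. Pifo has its full box from −20 to −7. A match describes the sequence and is not a binding site, and no match says only that these letters are not in the window. The full box was searched with GGNAAC as its second part only. Close variants were not counted as a full box, such as gttgcctagcaac in Dynlrb2 and gttgctaggtaac in Ccdc42. The count of full boxes therefore does not show that the other members lack an X-box.

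Mean levels over the 20 libraries ran from 1.06 FPKM for Cfap54, a central pair gene, to 183 FPKM for Tppp3, which encodes a protein that promotes tubulin polymerization. After Tppp3 the highest levels were those of Dynlrb2, a dynein light chain of the roadblock family, with 71.8 FPKM, and the coiled-coil gene Ccdc153 with 59.6 FPKM. Next came Lrrc23 (33.6 FPKM) and Rsph1 (28.4 FPKM), both of the radial spokes, with Foxj1 at 30.8 FPKM between them. The outer dynein arm genes lay between 1.36 FPKM (Dnah11) and 7.73 FPKM (Dnai1), and the central pair genes between 1.06 and 7.87 FPKM (Spag6l). Long genes were listed at lower levels: over the 40 members the Spearman correlation of the mean FPKM with exonic length was −0.77, a description across genes, which are not replicates. In 5 members the FPKM fell under 1 in some libraries, with a value of 1 or more in 11 libraries for Cfap54, 16 for Dnah2, 18 for Hydin and 19 each for Dnah11 and Ccdc42.

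Foxj1 (chr11:116330704-116335399 in GRCm38, − strand) had 27.7, 26.2, 33.9, 21.6 and 24.3 FPKM in the SMD libraries and 36.1, 38.8, 36.6, 37.8 and 33.6 FPKM in the prednisone libraries. In the model libraries it had 43.3, 37.4, 30.3, 29.8 and 28.9 FPKM, and in the control libraries 27.4, 23.6, 26.6, 24.1 and 28.1 FPKM. All prednisone and all model libraries lay above every control library, while SMD overlapped control and, through SMD replicate 3, the model and prednisone ranges. Rfx3, the other regulator, was low everywhere, with 1.43, 1.76, 2.15, 1.67 and 1.32 FPKM under SMD and 1.84, 2.29, 2.06, 1.91 and 1.74 FPKM under prednisone. Its model libraries had 1.75, 1.47, 1.45, 1.53 and 1.55 FPKM and its control libraries 1.49, 1.43, 1.53, 1.75 and 2.32 FPKM. The 4 groups of Rfx3 overlapped, the model with prednisone only through its replicate 1.

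Among the abundant structural genes, Tppp3 (chr8:105467493-105471526, − strand) had 188, 175, 189, 195 and 182 FPKM under SMD and 168, 159, 164, 172 and 153 FPKM under prednisone. Its model libraries had 206, 207, 185, 182 and 289 FPKM, and its control libraries 170, 191, 169, 153 and 161 FPKM. Every prednisone library lay below every model and every SMD library, and model replicate 5 stood far above the rest. Dynlrb2 had 66.4, 64.6, 92.9, 58.9 and 59.9 FPKM under SMD, 72.2, 79.5, 66.4, 72.0 and 65.1 FPKM under prednisone, 90.6, 84.4, 77.1, 76.6 and 80.2 FPKM in the model, and 61.6, 72.4, 62.3, 59.99 and 72.2 FPKM in control. All model libraries were above all control libraries, and the highest value of any library was in SMD replicate 3. Ccdc153 had 58.4, 63.9, 67.5, 51.9 and 42.2 FPKM under SMD, 57.3, 75.1, 64.7, 65.4 and 51.9 FPKM under prednisone, 82.5, 79.2, 59.6, 64.5 and 55.4 FPKM in the model, and 55.3, 55.2, 42.6, 42.9 and 56.2 FPKM in control. Its groups overlapped, with the 2 highest values in model replicates 1 and 2.

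Of the radial spoke genes, Lrrc23 had 29.4, 31.5, 37.9, 34.0 and 30.1 FPKM under SMD, 35.9, 37.5, 37.6, 36.7 and 31.0 FPKM under prednisone, 39.2, 35.0, 32.5, 38.7 and 32.1 FPKM in the model, and 30.4, 31.2, 30.4, 29.1 and 32.2 FPKM in control. Rsph1, a protein of the spoke head, had 29.5, 29.0, 34.8, 24.9 and 26.0 FPKM under SMD, 26.7, 28.5, 26.3, 32.8 and 27.3 FPKM under prednisone, 34.7, 35.6, 31.4, 29.9 and 26.1 FPKM in the model, and 23.6, 23.3, 25.2, 22.5 and 28.8 FPKM in control. Control was the lowest group of both genes in the mean and overlapped each of the others. Cfap43 (chr19:47736857-47919287, − strand), part of the complex that tethers the head of an inner arm dynein to its doublet, had 7.12, 7.43, 13.0, 7.64 and 4.62 FPKM under SMD and 14.2, 10.6, 10.004, 12.6 and 8.16 FPKM under prednisone. It had 15.5, 11.8, 9.12, 13.7 and 11.5 FPKM in the model, against 5.78, 7.21, 7.72, 5.25 and 5.29 FPKM in control. Prednisone and model both lay wholly above control, and SMD lay near control apart from its replicate 3. Ccdc42 (chr11:68587021-68597966, + strand), a coiled-coil gene known from the sperm tail in mice, had 2.67, 3.09, 1.89, 2.24 and 2.99 FPKM under SMD and 1.496, 1.28, 0.906, 1.59 and 2.07 FPKM under prednisone. Its model libraries had 2.78, 2.69, 4.16, 3.37 and 4.22 FPKM and its control libraries 1.73, 3.98, 1.87, 1.56 and 1.25 FPKM, so that prednisone lay wholly below model and control replicate 2 stood apart from its group.

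**Figure D1:**
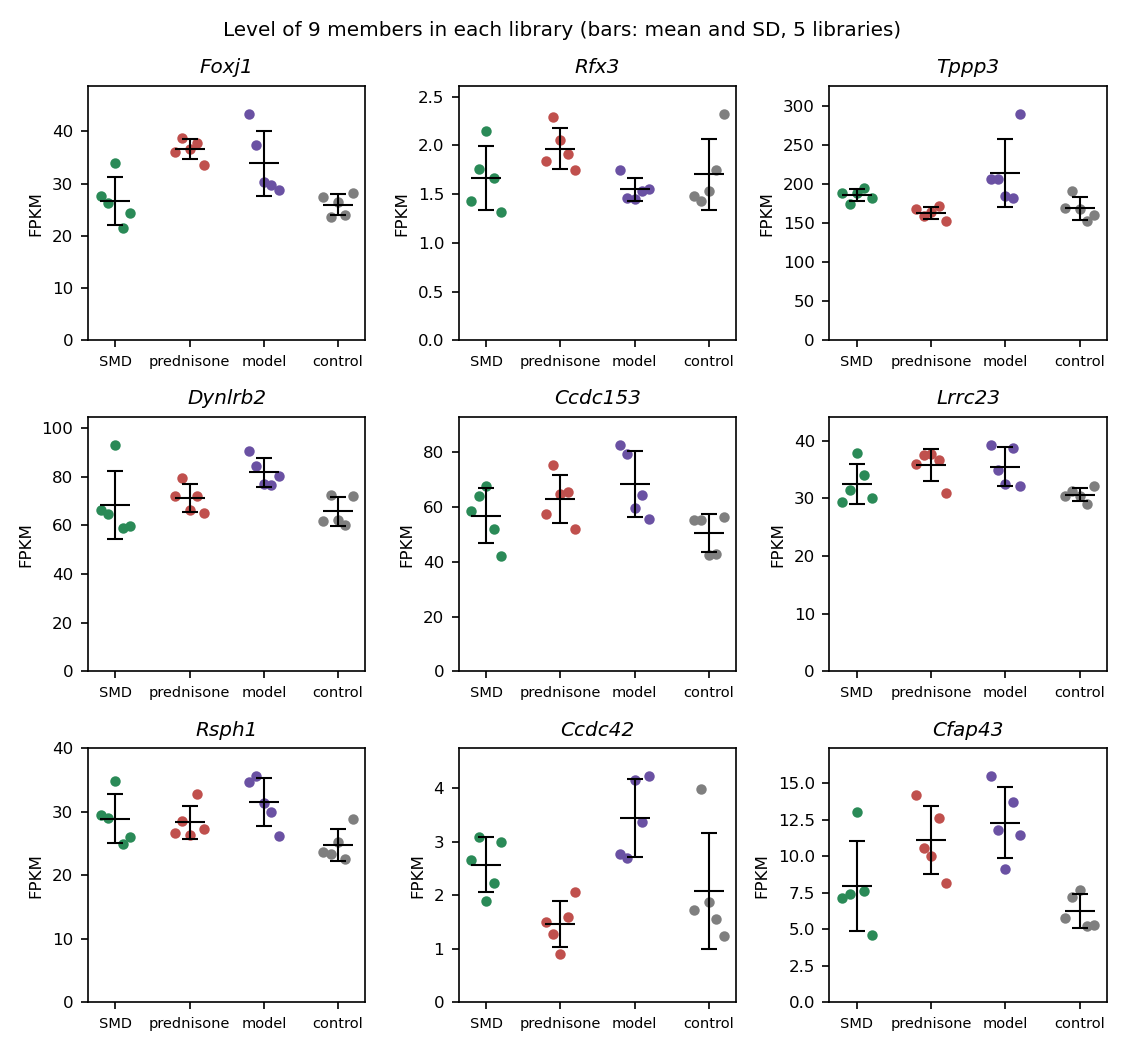
Level of 9 members in each library, in FPKM on a linear axis that starts at 0 (points: libraries, 5 per group; black bars: mean and SD). Foxj1 and Cfap43 lie higher in prednisone and model than in control, Ccdc42 and Tppp3 are lower in prednisone than in model, and 1 SMD library of Foxj1, Dynlrb2 and Cfap43 stands above the other 4.

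Between model and control, 37 of 40 members had a positive and 3 a negative log2 fold change, and none passed the test. The median over the members was 0.17, against 0.055 over all genes tested. It was 0.12 after median-of-ratios scaling (0.005 over all genes) and 0.11 after quantile normalization (0.002 over all genes). With a correction for length and GC content it was 0.10. At an unadjusted p under 0.05 limma gave 13 members higher (32.5%, against 13.0% of all genes) and 0 lower (2.81% of all genes), and the lowest adjusted p was 0.0626. Under these alternatives, in that order, 34, 36 and 36 members were positive and 10, 9 and 9 were higher at that threshold. Of all genes, 65.9% had a positive value. The call rule was met by 0.192% of all genes in the higher and 0% in the lower direction. In bulk lung, fewer cells of a type and less RNA per cell cannot be told apart. In 4 members the model libraries lay wholly above the control libraries, namely Foxj1, Dynlrb2, Tekt2 and Cfap43, as they did in 2.84% of all genes.

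Cfap43 averaged 12.3 ± 2.40 FPKM in the model, against 6.25 ± 1.14 FPKM in control (SD, n = 5 each), a log2 fold change of 0.87 ± 0.19 (SE) with an adjusted p of 0.0626. Foxj1 averaged 33.9 ± 6.23 FPKM in the model, against 26.0 ± 2.01 FPKM in control, with a log2 fold change of 0.36 ± 0.11 and an adjusted p of 0.136. Rfx3 had a log2 fold change of −0.08 ± 0.09. Medians by role were 0.32 for the 6 other ciliary genes, 0.20 for the 8 doublet genes, 0.19 for the radial spokes, 0.14 for the central pair and for the rulers, linkers and tethers, 0.11 for the outer arms and 0.06 for the inner arms. The negative values belonged to Rfx3, Ccdc39 and Rsph4a, at −0.08 to −0.02. Ccdc39 encodes a ruler protein that sets the spacing along the doublet, and Rsph4a a spoke head protein.

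**Figure D2:**
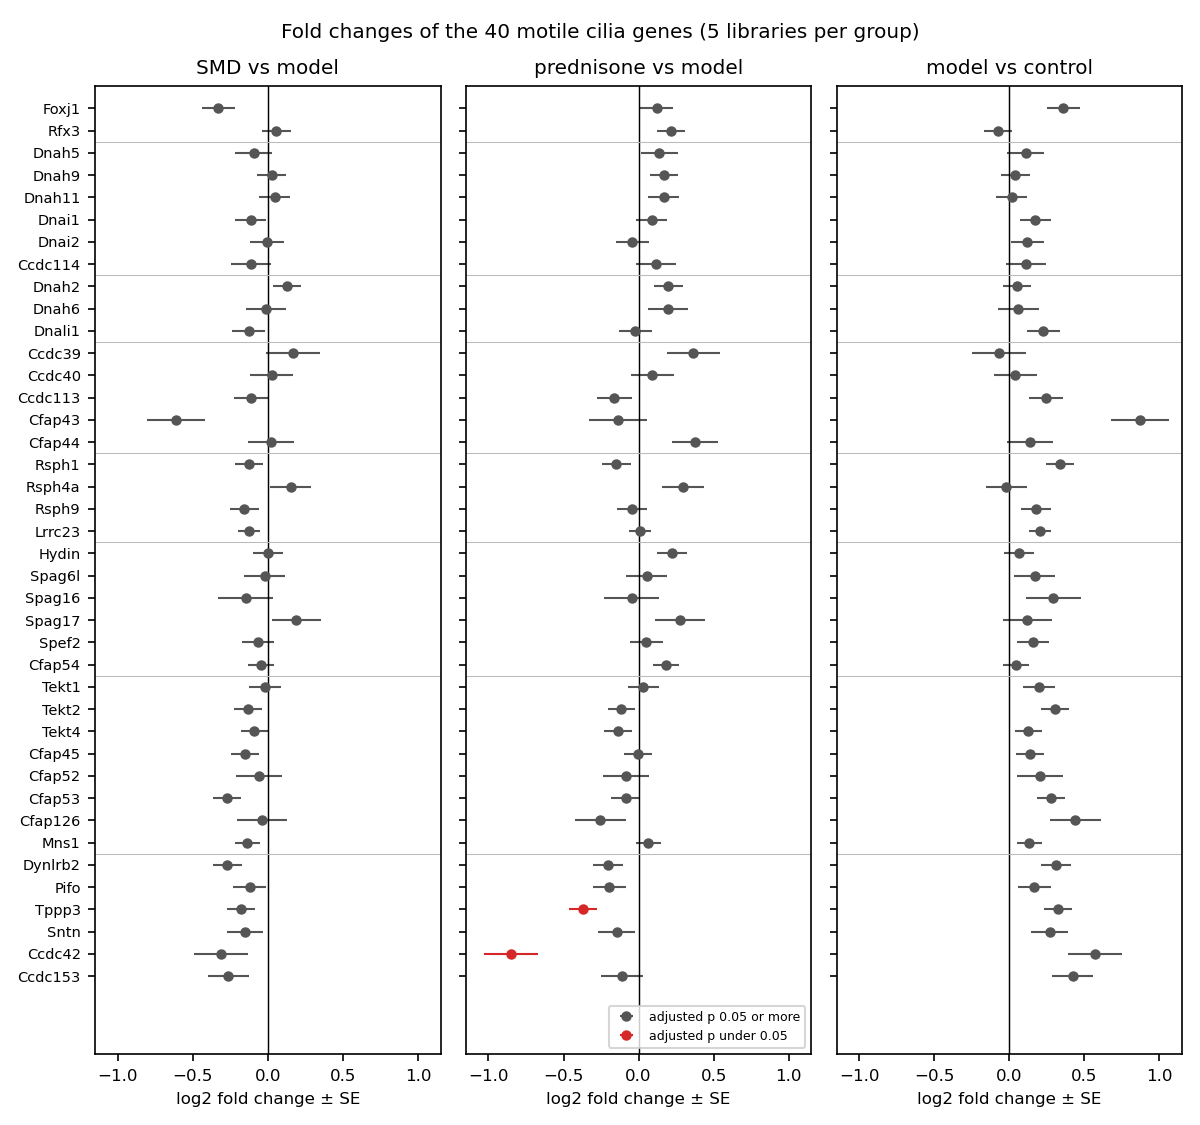
Log2 fold change (first group minus second, on log2(FPKM + 1)) with its standard error for the 40 members in SMD against model, prednisone against model and model against control, 5 libraries per group, grouped by role from the regulators at the top to the other ciliary genes. Red points, Tppp3 and Ccdc42 in prednisone against model, have an adjusted p under 0.05. In model against control 37 of the 40 points lie right of 0.

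Between SMD and model 10 members had a positive and 30 (75%) a negative value, against 65.7% negative values among all genes, and none passed the test. After median-of-ratios scaling or quantile normalization 15 members were positive and 25 negative. These values share the model libraries with model against control, so the signs of both are not independent. The members' median was −0.10 (−0.05 and −0.03 after these scalings), against −0.06 over all genes tested, of which 0.245% were called higher and 1.91% lower. At an unadjusted p under 0.05 limma gave 0 members higher (3.14% of all genes) and 4 lower, Cfap43, Foxj1, Cfap53 and Dynlrb2. These 4 are 10% of the members, below the 15.7% of all genes that were lower at that threshold. Cfap43 averaged 7.96 ± 3.06 FPKM under SMD and 12.3 ± 2.40 FPKM in the model, a log2 fold change of −0.61 ± 0.19 with an adjusted p of 0.0890. Foxj1 averaged 26.7 ± 4.61 FPKM under SMD and 33.9 ± 6.23 FPKM in the model (log2 fold change −0.33 ± 0.11, adjusted p = 0.110). In the values as deposited, all 8 doublet genes and all 6 other ciliary genes were negative, with medians of −0.11 and −0.22. No member had SMD and model libraries that did not overlap. Without SMD replicate 3, in which 38 of the 40 members lay above their own median, 2 members were called, both of them lower. In that fit 131 of the 15106 genes tested were called in this comparison, in either direction.

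Prednisone differed from model in 2 members, Ccdc42 and Tppp3, which both fell, and no member was called higher. Ccdc42 averaged 1.47 ± 0.43 FPKM under prednisone and 3.44 ± 0.73 FPKM in the model, a log2 fold change of −0.85 ± 0.18 (adjusted p = 0.00990). Tppp3 averaged 163 ± 7.38 FPKM under prednisone and 214 ± 43.6 FPKM in the model, a log2 fold change of −0.37 ± 0.09 (adjusted p = 0.0223). These 2 of 40 members stand beside 7.13% of all genes called lower, and 0.914% of all genes were called higher. The other 38 members split into 21 positive and 17 negative values, and the median over all 40 was 0.02, against −0.05 over all genes tested. The share of positive values over all genes was 38.2%. At an unadjusted p under 0.05 limma gave 6 members higher (15%, against 5.04% of all genes) and 2 lower (5%, against 18.5%). The members' median changed sign with the fat score as a covariate (−0.03) and with a filter at FPKM 2 (−0.02), and with the length and GC correction 29 of 40 were positive (median 0.08). After median-of-ratios scaling or quantile normalization 25 were positive and 15 negative, with medians of 0.07 and 0.08, against −0.01 over all genes in each. With the club cell score as a covariate 1 member was called higher, Cfap44, with a log2 fold change of 0.45 (adjusted p = 0.0471), beside 2 called lower. That fit called 1301 of the 15106 genes in either direction. Groups did not overlap in Ccdc42 and Tppp3, which were lower (6.68% of all genes), and in Dnah2, an inner arm heavy chain, which was higher (0.900% of all genes). Dnah2 had 1.26, 1.75, 1.45, 1.33 and 1.28 FPKM under prednisone and 1.26, 1.12, 0.867, 1.23 and 1.04 FPKM in the model, an adjusted p of 0.211. The call of Tppp3 was lost in 5 of the alternatives, among them quantile normalization (−0.24, adjusted p = 0.169) and the fit of the 2 groups alone (adjusted p = 0.0826), and both calls were lost with a correction for gene length and GC content (−0.71, adjusted p = 0.0510 for Ccdc42; −0.21, adjusted p = 0.241 for Tppp3).

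The sign in prednisone against model went with the length of the gene. All 11 members with 8000 or more exonic bases had a positive log2 fold change (median 0.20), among them the dynein heavy chains Dnah2, Dnah5, Dnah6, Dnah9 and Dnah11 and the central pair giant Hydin. Of the 13 members under 2000 bases, 11 had a negative value (median −0.15). The Spearman correlation of the log2 fold change with exonic length over the 40 members was 0.79, a description across genes that share libraries and differ in level as well as length. Among all genes tested the median was −0.07 for the 1950 genes under 1000 bases, −0.14 for the 1888 genes of 1000 to under 2000, and 0.05 for the 2167 genes of 8000 or more, with a correlation of 0.27. With 0.1 in place of 1 as the pseudocount, the median of the 11 long members was 0.32 and the correlation 0.81. With the correction for length and GC content, 10 of 11 long and 5 of 13 short members were positive, the medians were 0.11 and −0.04, and the correlation was 0.43. In model against control the order was opposite, with a correlation of −0.68 over the members, a median of 0.06 in the long ones and 0.27 in the short ones. In SMD against model the correlation was 0.57, with all 13 short members negative and 7 of the 11 long ones positive. These 3 comparisons share the model libraries.

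**Figure D3:**
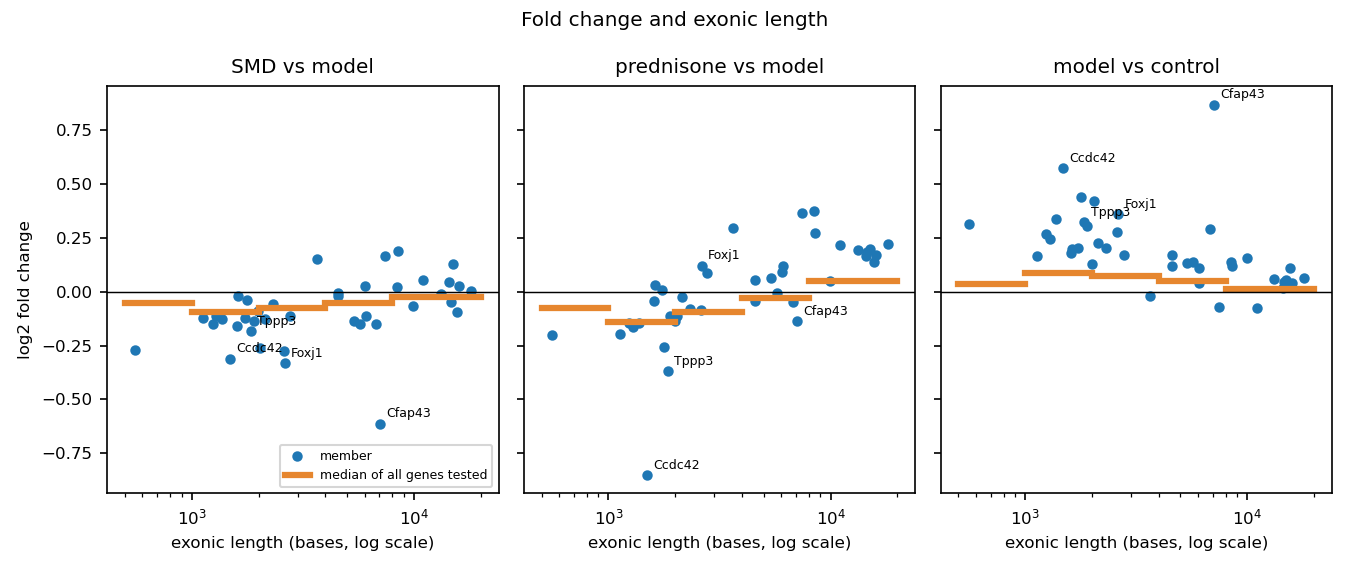
Log2 fold change against exonic length (bases, log scale) for the 40 members (blue points) in SMD against model, prednisone against model and model against control, with the median of all genes tested in 5 length classes (orange bars). Under prednisone the long members lie above 0 and most short ones below, and the bars of all genes climb over a smaller range from the second length class to the last, with the first class above the second.

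Set out by library, the median deviation of the 11 long members from their own means, minus that of the 13 short ones, was −0.10 to 0.07 on the log2 scale under SMD, 0.12 to 0.20 under prednisone, −0.24 to −0.08 in the model and −0.10 to 0.09 in control. On this measure the prednisone libraries lay above all others. Model replicates 1, 2, 3 and 5 lay below every SMD and control library, and model replicate 4 was within their range. The same measure over all genes tested, 2167 long against 3838 short, was −0.06 to 0.03 under SMD, 0.01 to 0.19 under prednisone, −0.12 to 0.08 in the model and −0.14 to 0.07 in control. This measure was chosen after the values were seen and has no test. Signs of RNA quality such as fragment size are not in the sources used here, and their part in the length pattern was not tested.

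**Figure D4:**
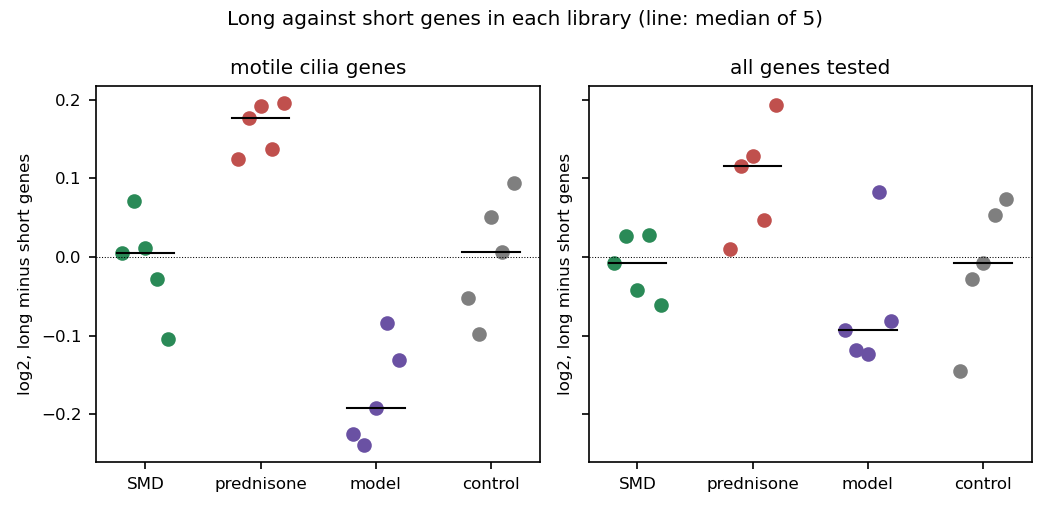
Median log2 deviation of long genes (8000 or more exonic bases) minus that of short genes (under 2000) in each library. Left are the 11 long and 13 short of the 40 motile cilia genes, right the 2167 long and 3838 short of all genes tested. Both panels share 1 axis, with a line at the median of the 5 libraries of each group. The prednisone libraries of the cilia genes lie at 0.12 to 0.20 and the model libraries at −0.24 to −0.08.

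SMD and prednisone differed in 1 member, Foxj1, which was lower under SMD. It averaged 26.7 ± 4.61 FPKM under SMD and 36.6 ± 1.95 FPKM under prednisone, a log2 fold change of −0.45 ± 0.11 (adjusted p = 0.0228). The call was narrow: SMD replicate 3, at 33.9 FPKM, lay above prednisone replicate 5, at 33.6 FPKM, and leaving out SMD replicate 4 or 5 or prednisone replicate 2 or 4 gave adjusted p-values of 0.0514 to 0.0662. Called genes made up 2.42% of all genes in the lower and 2.16% in the higher direction. Of the members, 31 had a negative and 9 a positive value, with a median of −0.12 against 0.00 over all genes tested (−0.00426 before rounding). The share of negative values over all genes was 51.1%. At an unadjusted p under 0.05 limma gave 6 members lower (15%, against 9.78% of all genes) and 1 higher (2.5%, against 9.7%). All 11 long members were negative. Ccdc42 averaged 2.57 ± 0.51 FPKM under SMD and 1.47 ± 0.43 FPKM under prednisone, a log2 fold change of 0.54 ± 0.18 (adjusted p = 0.0947). The SMD libraries of Tppp3 lay wholly above those of prednisone (2.74% of all genes), with a log2 fold change of 0.19 ± 0.09 (adjusted p = 0.283).

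Prednisone differed from control in 2 members, Foxj1 and Cfap43, which both rose. Foxj1 averaged 36.6 ± 1.95 FPKM under prednisone and 26.0 ± 2.01 FPKM in control, a log2 fold change of 0.48 ± 0.11 (adjusted p = 0.0210). Cfap43 averaged 11.1 ± 2.35 FPKM under prednisone and 6.25 ± 1.14 FPKM in control, a log2 fold change of 0.73 ± 0.19 (adjusted p = 0.0398). These 2 of 40 members stand beside 1.78% of all genes called higher, and 1.79% were called lower. Of the 40 members 36 had a positive value (90%, against 49% of all genes), and the median was 0.21, against 0.00 over all genes (−0.00440 before rounding). At an unadjusted p under 0.05 limma gave 13 members higher and 0 lower (10.2% and 10.5% of all genes). The 4 negative values were those of Ccdc42 (−0.28), Tppp3 (−0.04), Pifo (−0.03) and the doublet gene Tekt4 (−0.01). All members of the outer and inner arms, the rulers and linkers, the radial spokes and the central pair had positive values. The 4 negative members were among the 13 under 2000 exonic bases, and the Spearman correlation with exonic length was 0.55. With the length and GC correction it was −0.0045, and 39 of the 40 members were positive. Cfap44, the partner of Cfap43 in the tether, averaged 9.46 ± 1.77 FPKM under prednisone and 6.31 ± 1.12 FPKM in control (log2 fold change 0.51 ± 0.15, adjusted p = 0.0657). Groups did not overlap in Foxj1, Cfap43, Dnah2 and Dnah9, higher in prednisone (2.44% of all genes). The call of Foxj1 was lost without control replicate 2 or 4 or prednisone replicate 2 (adjusted p 0.0503 to 0.0596) and that of Cfap43 without any one of 8 of the 10 libraries of these groups, control 3 and prednisone 5 being the exceptions (0.0516 to 0.0875).

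SMD and control differed in no member. The members' median was 0.09, against 0.00 over all genes (−0.00376 before rounding), with 35 positive and 5 negative values. The share of positive values over all genes was 48.7%. At an unadjusted p under 0.05 limma gave 2 members higher (5%, against 6.48% of all genes), Rsph1 and Cfap126, a protein inside the doublet, and 0 lower (8.06% of all genes), and the lowest adjusted p was 0.279. Called genes were 0.291% of all genes in the higher and 0.761% in the lower direction. Cfap126 averaged 15.9 ± 4.86 FPKM under SMD and 11.6 ± 2.25 FPKM in control, with the SMD mean carried in part by replicate 3 at 23.0 FPKM. Without SMD replicate 3 the positive values numbered 24 of 40.

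The members largely moved together from library to library. After removing group means, 713 of the 780 pairs of members had a positive Pearson correlation over the 20 libraries, with a median of 0.62 and a range of −0.62 to 0.95. This is a description of genes measured in the same libraries. Median correlations with the other members were highest for the heavy chain Dnah5 (0.77) and Cfap44 (0.74), and 0.68 for Foxj1. The exceptions were Ccdc42 (−0.39), Tppp3 (−0.09) and Ccdc114 (0.20), of the docking complex of the outer arm, and all other members had a median of 0.42 or more. So the 2 members called between prednisone and model were the 2 whose values followed the rest least. SMD replicate 3 held the highest value of 13 members and model replicate 1 of 10, with 38 and 37 members above their own median there. Control replicate 4 held the lowest value of 14 members, with 2 above their own median, and control replicate 1 of 7, with 3 above. The summed FPKM of the 40 members was 568 to 756 under SMD, 579 to 690 under prednisone, 639 to 788 in the model and 516 to 627 in control, a sum of which Tppp3 makes the largest share.

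**Figure D5:**
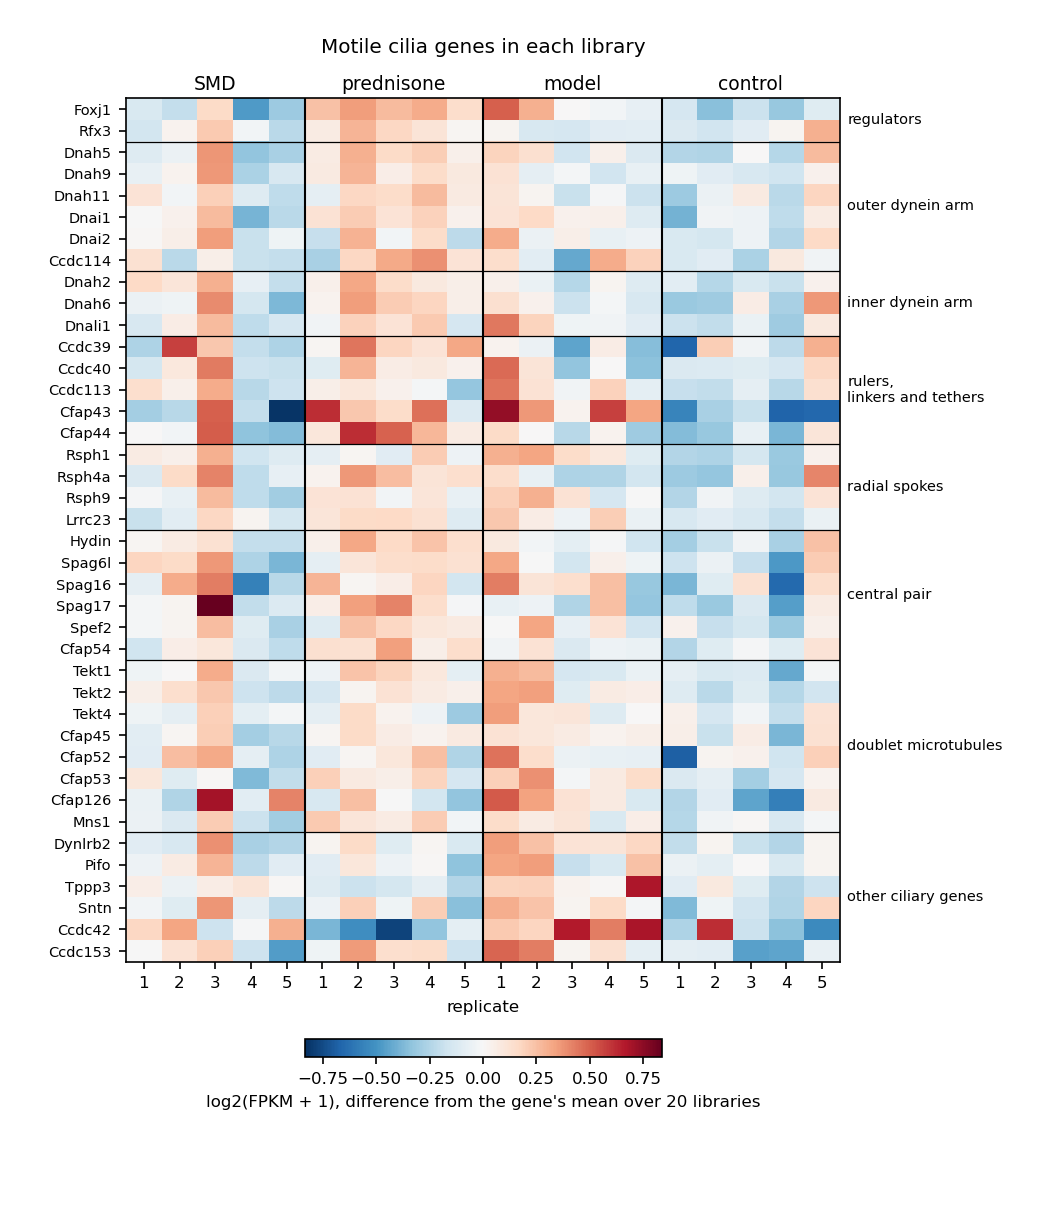
Difference of log2(FPKM + 1) from each gene's mean over the 20 libraries, for the 40 members (from top to bottom, by role) in the SMD, prednisone, model and control libraries (from left to right, replicates 1 to 5). Whole libraries are shaded alike, with SMD replicate 3 and model replicate 1 high in most members and control replicate 4 low, while Ccdc42 and Tppp3 have patterns of their own.

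Other genes of motile cilia, listed by function apart from the 40, had few calls. Of 21 tested dyneins of the axoneme and their assembly factors, none was called in prednisone against control (1.78% of all genes called higher). At an unadjusted p under 0.05 by limma 10 were higher (10.2% of all genes). Of the 21, 20 were positive (49% of all genes), with a median of 0.23. In SMD against prednisone all 21 were negative (51.1% of all genes), with a median of −0.14. In this comparison 1 fell (2.42% of all genes called lower), Dnal1, a light chain of the outer arm. Dnal1 averaged 4.56 ± 0.41 FPKM under SMD and 6.10 ± 0.52 FPKM under prednisone (adjusted p = 0.0260). Of 46 tested other genes of spokes, central pair, doublets and linkers, 1 rose in prednisone against control (1.78% of all genes called higher). It was the central pair gene Cfap74, with 4.46 ± 0.80 FPKM under prednisone against 2.89 ± 0.44 FPKM in control (adjusted p = 0.0257). Of the 46, 42 were positive (49% of all genes), with a median of 0.21. In model against control 42 of these 46 were positive too (65.9% of all genes), with a median of 0.20 and no call. There limma gave 15 higher and 0 lower at an unadjusted p under 0.05, against 13.0% and 2.81% of all genes. The 11 tested genes that drive multiciliation and basal body amplification had medians of 0.01 in model against control and 0.05 in prednisone against control. Limma again gave no call. At an unadjusted p under 0.05 it gave 0 and 1 higher, against 13.0% and 10.2% of all genes. Of the 29 genes of intraflagellar transport and the BBSome, the carriers that build cilia of every kind, 1 fell in prednisone against model. It was Ift43, with 39.5 ± 2.60 FPKM against 46.1 ± 2.02 FPKM in the model (adjusted p = 0.0101), beside 7.13% of all genes called lower. In SMD against prednisone 1 of these 29 fell as well, beside 2.42% of all genes called lower. It was Dync2h1, the motor of retrograde transport, with 1.07 ± 0.14 FPKM against 1.51 ± 0.19 FPKM under prednisone (adjusted p = 0.0411).

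Markers of other cells that a lung sample holds moved with the groups to different degrees, and their part in the values above was not tested beyond the fits named here. The 14 club and secretory cell markers, from the airway neighbours of ciliated cells, summed to 41540 to 55940 FPKM under SMD, 36760 to 59710 under prednisone, 42150 to 57670 in the model and 49540 to 58080 in control, most of it Scgb1a1. Of the 13 tested, 11 were negative in model against control (median −0.15, against 34.1% of all genes negative). In prednisone against control 11 were negative (median −0.22, 51% of all genes), and in SMD against control 9 (median −0.15, 51.3% of all genes). None was called in these comparisons. Of the 10 alveolar type 2 markers, all had a positive value in model against control (median 0.37, none called, 8 higher and 0 lower at an unadjusted p under 0.05 by limma). Over all genes 65.9% were positive there, with 13.0% higher and 2.81% lower at that threshold. The 8 tested cardiac muscle genes were all negative in SMD against control (median −1.08, 1 called, 8 lower at an unadjusted p under 0.05 by limma). They were all negative in prednisone against control too (median −0.66, none called, 4 lower at that threshold). So were the 5 tested airway basal cell genes in both comparisons (medians −0.38 and −0.34, none called, 2 lower each at that threshold). Over all genes 51.3% were negative in SMD against control, with 8.06% lower at that threshold and 0.761% called lower. In prednisone against control these shares were 51%, 10.5% and 1.79%. The 3 tested neuroendocrine genes had medians of −0.07 in SMD against control and −0.12 in prednisone against control. Fat markers differed most: the summed level of the 10 was 18.3 to 39.9 FPKM under SMD, 21.2 to 104 under prednisone, 36.4 to 391 in the model and 66.7 to 764 in control. With the fat score as a covariate neither Foxj1 (0.46, adjusted p = 0.186) nor Cfap43 (0.55, adjusted p = 0.377) was called in prednisone against control. Their log2 fold changes without it were 0.48 and 0.73. Over all 15106 genes the calls in this comparison were 540 without the fat score and 65 with it. With the club cell score 10 members were called, beside 449 of the 15106 genes. Within groups the members correlated with the club cell score at −0.44 (Ccdc42) to 0.75 (Rsph9). The 10 cartilage markers, of the wall of large airways, summed to at most 1.16 FPKM in any library, and none passed the filter. The FPKM of a library summed to 377639 to 522361. Since the strand setting of the counting is not given, values of Mns1, of which 53.0% of the exonic bases overlap Tex9 on the opposite strand, and of Tekt2 (20.8%) and Ccdc39 (16.9%), which overlap other genes likewise, are uncertain.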

How the data were processed

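Lung RNA of 20 libraries was analysed from the table of FPKM values that the authors deposited. Tools named, per the submitters' processing notes, are fastp, HISAT2, featureCounts and DESeq2, with the genome build GRCm38. The notes give neither versions nor the program, annotation and strand setting behind the FPKM values. FPKM values hold no counts, so depth is unknown and no counting interval is given.

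Gene identifiers were paired with symbols, positions and exonic lengths through GENCODE vM21 of GRCm38, where 54495 of 54532 identifiers were found. Dnai1 and Dnai2 were matched through RefSeq synonyms. Values were analysed as log2(FPKM + 1), which understates the change of genes with low values. Genes reaching an FPKM of 1 in at least 5 libraries entered a limma 3.58.1 fit (R 4.3.3; lmFit, eBayes with a trend, 4 group means over all 20 libraries, no covariate, 16 residual degrees of freedom). Tests were two-sided, with Benjamini-Hochberg adjustment over the 15106 genes of a comparison. The procedure was tested on simulated data.

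The members, the other gene lists, the comparisons and the alternatives were chosen with earlier results of these data known. Members given by library were Foxj1, Rfx3, the 6 with the highest mean FPKM and, of the called members, up to 10 with the smallest adjusted p. Dnah2 was given by library after its values were seen. Other lists are represented by their called genes, at most 4 each by size of change. Alternatives were another pseudocount (0.1), no filter, a filter at FPKM 2, median-of-ratios scaling, quantile normalization, the 2 groups alone, a replicate block, a correction for length and GC content, club cell and fat scores as covariates, and leaving out each library. No list or set test was made, and no p-value is given for the members together. The label of each library gave its group, and no library was left out.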

Additional observations from a re-analysis of the deposited data

Results flagged for a closer look

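In each of the 160 groups of 5 libraries (40 members in 4 groups), the library furthest out was examined with Dixon's ratio of its gap to the range of the group, at the 95% critical value of 0.71. Chance marks about 1 in 20 groups, and 11 of 160 were marked, 5 of them in SMD replicate 3. In that library Dynlrb2 had 92.9 FPKM, against 58.9 to 66.4 in the other 4. Tekt1 and Tekt4, filament proteins of the doublet, had 16.8 FPKM against 12.2 to 13.3 and 9.42 FPKM against 7.60 to 7.96. Spag17, of the central pair, had 4.90 FPKM against 1.87 to 2.36, and Sntn, a protein of the ciliary tip, 17.5 FPKM against 11.3 to 13.1. In model replicate 1 the outer arm intermediate chain Dnai2 had 8.84 FPKM, against 6.62 to 7.22 in the other 4 libraries.

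In model replicate 5 Tppp3 had 289 FPKM, against 182 to 207 in the other model libraries. Ccdc42 had 3.98 FPKM in control replicate 2, against 1.25 to 1.87 in the rest of its group. Ccdc40, the partner of Ccdc39 in the ruler, had 3.73 FPKM in control replicate 5, against 2.81 to 2.91. Below their groups were Spag6l in prednisone replicate 1, with 7.31 FPKM against 8.39 to 8.73, and Lrrc23 in prednisone replicate 5, with 31.0 FPKM against 35.9 to 37.6.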

How the results depend on the processing

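No fold change of a called member changed sign under any alternative. In prednisone against model the 2 calls became 1 with no filter, quantile normalization, median-of-ratios scaling or the 2 groups alone, 0 with the length and GC correction, and 3 with the club cell score, which added Cfap44. In SMD against prednisone the 1 call became 0 with no filter. In prednisone against control the 2 calls became 0 with no filter, 1 with the length and GC correction, 10 with the club cell score and 0 with the fat score. All genes called there were 259 of 37958 with no filter. Of 15106 genes they were 680, 449 and 65 in the other 3 fits, in that order, against 540 as deposited. Leaving out each library gave 0 to 1 calls in model against control (1 without SMD replicate 3 or 5), 0 to 2 in SMD against model (2 without SMD replicate 3), 2 in prednisone against model throughout, 0 to 3 in SMD against prednisone (3 without SMD replicate 3, 2 without control replicate 2, 0 without SMD replicate 4 or 5 or prednisone replicate 2 or 4) and 0 to 3 in prednisone against control (3 without control replicate 5 or SMD replicate 3, 1 without control replicate 1 or prednisone replicate 1, 3 or 4, 0 without control replicate 2 or 4 or prednisone replicate 2). SMD against control had 0 under every alternative. Without SMD replicate 3, all genes called numbered 33 in model against control and 131 in SMD against model. They numbered 600 in SMD against prednisone and 553 in prednisone against control. The causes were not tested.

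With the replicate block the counts were 0 in model against control, 0 in SMD against model, 2 in prednisone against model, 1 in SMD against prednisone, 0 in SMD against control and 2 in prednisone against control, the same as without it. The numbers do not pair the libraries: deviations of same-numbered libraries correlated at −0.18 to 0.24, and 2 of 20 libraries correlated best with their own number. In SMD against model the members with a positive value numbered 10 as deposited, 15 after median-of-ratios scaling or quantile normalization, 17 with the length and GC correction or the club cell score, and 5 with the fat score. Leaving out single libraries gave 4 (without SMD replicate 3) to 16 (without model replicate 1). In SMD against control 35 were positive as deposited and 19 with the fat score. The following ranges leave aside the fits without single libraries. The members' median in SMD against model was −0.10 as deposited and ran from −0.16 with the fat score to −0.01 with the club cell score. In prednisone against model it was 0.02 and ran from −0.03 with the fat score to 0.08 with quantile normalization.

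Depth is unknown, so how far the low members (Cfap54, Dnah2, Dnah11, Hydin, Rfx3 and Spef2, all with a mean under 2 FPKM) are limited by counting error cannot be given. With 5 libraries per group, a missed threshold does not show that levels were alike. The model libraries enter 3 of the comparisons and the control libraries 3, so these are not independent.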

Other observations

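Smooth muscle genes of airway and artery, which lie under the ciliated epithelium, were the other airway group with several calls. Under prednisone 4 of 7 tested genes fell against control (1.79% of all genes) and 2 of 7 against model (7.13% of all genes). Acta2, the smooth muscle actin, averaged 33.3 ± 4.39 FPKM under prednisone and 51.2 ± 9.76 FPKM in control (SD, n = 5 each), a log2 fold change of −0.60 ± 0.11 with an adjusted p of 0.00545 by limma. Myh11, its myosin heavy chain, averaged 9.83 ± 1.04 FPKM under prednisone and 14.3 ± 1.51 FPKM in control (−0.49 ± 0.09, adjusted p = 0.00614). Against model, Acta2 averaged 33.3 FPKM under prednisone and 46.9 ± 3.85 FPKM in the model (−0.49 ± 0.11, adjusted p = 0.0119). Of the club cell list, Cckar rose under SMD, with 18.6 ± 2.19 FPKM under SMD and 14.6 ± 0.56 FPKM in the model (log2 fold change 0.32 ± 0.08, adjusted p = 0.0346). It was the 1 called of 13 tested markers, beside 0.245% of all genes called higher. The 13 were divided, with 6 positive and 7 negative values from −1.64 to 0.32 and a median of −0.04.

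Of 9 tested alveolar type 1 genes, 2 were called higher under SMD than under prednisone (2.16% of all genes). In this comparison 7 of the 9 were positive and 2 negative, the lowest at −0.47. At an unadjusted p under 0.05 limma gave 1 of them lower (9.78% of all genes). Aqp5, a water channel, averaged 81.3 ± 5.12 FPKM under SMD and 55.4 ± 5.22 FPKM under prednisone, a log2 fold change of 0.55 ± 0.10 (adjusted p = 0.00353). The 2 groups of Aqp5 did not overlap, with SMD higher, as in 2.74% of all genes. Akap5, an anchor of protein kinase A, averaged 34.3 ± 5.60 FPKM under SMD and 23.6 ± 2.43 FPKM under prednisone (0.51 ± 0.11, adjusted p = 0.00936). In SMD against control, 3 of 9 tested fat genes fell, against 0.761% of all genes called lower. Among the 3 was Fabp4, with 15.4 ± 5.50 FPKM under SMD and 203 ± 189 FPKM in control (adjusted p = 0.0380).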
